A study of Homo sapiens with 7 samples.

Results

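The 8 genes described here are LIN28A, LIN28B, HMGA1, HMGA2, IGF2BP1, IGF2BP2, IGF2BP3 and TRIM71, RNA-binding and chromatin proteins tied to the let-7 family of microRNAs. They were chosen by name, with earlier results of these data known, and all 8 were found among the 19775 genes listed. Poly(A) RNA came from H1, a human embryonic stem cell line of wild-type genotype, grown in E8, a defined medium that holds insulin, FGF2 and TGFβ among its components. XMD892, a kinase inhibitor that the series links through its title to ERK5, was given at 1 µM in E8. The groups were XMD892 for 12 h (n = 1), 24 h (n = 2) and 48 h (n = 2), and E8 alone for 48 h (n = 2). Because E8 was sampled at 48 h only, treatment and harvest time differ together in the 12 h and 24 h comparisons. The labels do not say that replicates were separate cultures, so the spread behind each p-value may be technical.

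Pluripotent cells transcribe let-7 primary transcripts but hold back their maturation. LIN28A and LIN28B bind let-7 precursors, in part through a GGAG stretch in the terminal loop. LIN28A recruits a terminal uridylyltransferase that marks the precursor for decay. Mature let-7 in turn pairs through its seed, bases 2 to 8, with sites in the 3′ UTRs of LIN28B, HMGA2, the IGF2BP genes and TRIM71, so the family and its repressors form a loop that differentiation tips towards let-7. HMGA1 and HMGA2 are AT-hook proteins of chromatin. IGF2BP1, IGF2BP2 and IGF2BP3 bind mRNAs and protect or localise them, and TRIM71 is a TRIM-NHL ubiquitin ligase that also represses mRNAs. These assays counted poly(A) RNA and did not measure mature let-7 or protein.

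The let-7 sequences show what the genes are matched by. The RefSeq table used here (GRCh38.p14) holds 12 human hairpins whose 5′ arm has the let-7 seed, miR-98 included, and these arms give 9 distinct mature sequences. The seed is in capitals in 4 of them, which show what every member shares:
let-7a-5p: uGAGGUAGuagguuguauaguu
let-7g-5p: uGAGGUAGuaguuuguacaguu
let-7i-5p: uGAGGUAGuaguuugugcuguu
miR-98-5p: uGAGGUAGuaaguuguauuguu
The 4 differ only after the seed.

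Of the 11 hairpins with both arms listed, 8 hold GGAG between the arms. One of each kind is shown, with GGAG in capitals where it lies in the loop, from chr3:52268278-52268361, minus strand, and chr22:46112749-46112822, plus strand, in GRCh38.p14:
let-7g: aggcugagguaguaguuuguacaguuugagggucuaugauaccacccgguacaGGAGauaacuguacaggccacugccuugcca
let-7a-3: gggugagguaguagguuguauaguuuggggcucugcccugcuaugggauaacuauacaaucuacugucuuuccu

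The 7 mRNA letters complementary to the seed, CTACCTC, were searched on the sense strand of each gene's 3′ UTR in GENCODE 29 (GRCh38), with no other motif to overlap. TRIM71 held 6 matches, LIN28B, HMGA2 and IGF2BP1 held 4 each, and LIN28A, HMGA1, IGF2BP2 and IGF2BP3 held 1 each. These are counts in the principal transcript, a choice made after seeing the data; the longest 3′ UTR of any transcript held 0 in HMGA2 and the same number in the other 7 genes. Among all 14389 genes with a 3′ UTR, 9.67% had at least 1 match, 0.0834% (12 genes) had at least 4 and 1 gene, TRIM71, had 6. The 3′ UTRs of TRIM71 (6015 bases), IGF2BP1 (6206) and LIN28B (4549) are also long against a median of 1093 bases over those genes. A match is a run of letters and not a measured site. The following examples, 1 for each gene with several matches and 1 each for HMGA1 and IGF2BP3, show the match in capitals:
LIN28B, chr6:105078812-105078834, plus strand: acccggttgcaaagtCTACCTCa
HMGA2, chr12:65963298-65963320, plus strand: gccaacgttcgatttCTACCTCa
IGF2BP1, chr17:49051061-49051083, plus strand: tgtgtgcgaagtaaaCTACCTCa
TRIM71, chr3:32891968-32891990, plus strand: aacattgcttaagtcCTACCTCa
IGF2BP3, chr7:23311795-23311817, minus strand: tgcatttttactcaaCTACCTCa
HMGA1, chr6:34245829-34245851, plus strand: tcctctgttcacaaaCTACCTCt
In 5 of these 6 the match is followed by an A, and over all 22 matches of the 8 genes in 13, 1 of them among the 4 in HMGA2.

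**Figure D1:**
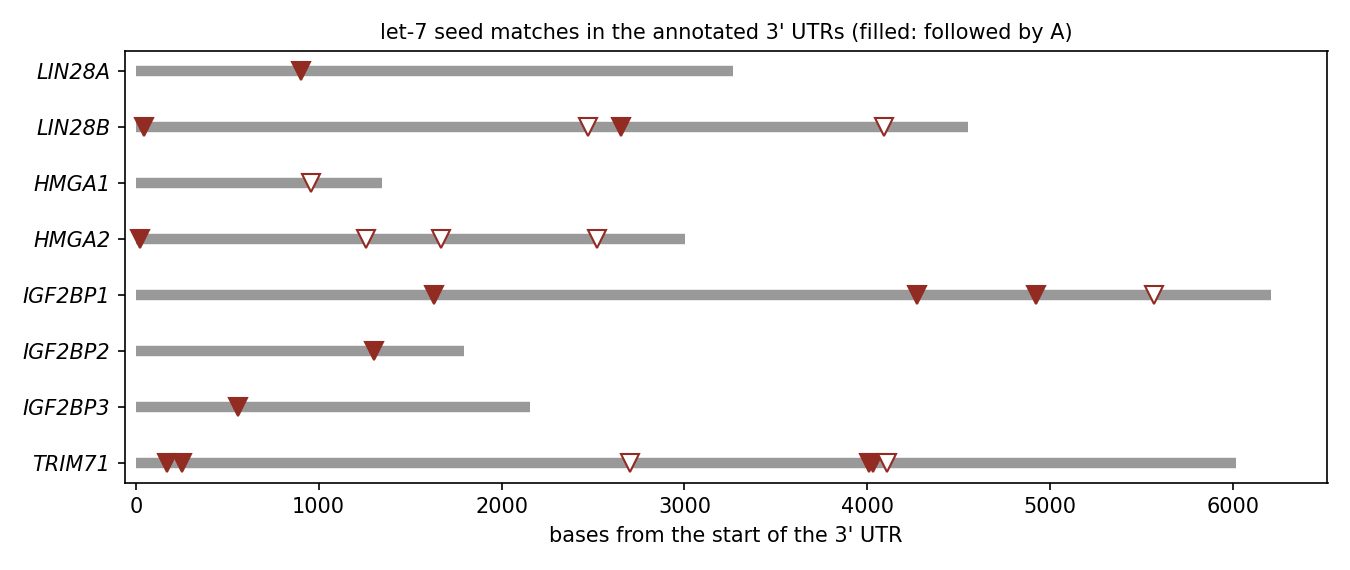
Let-7 seed matches in the 3′ UTR of the principal transcript of each of the 8 genes. TRIM71 has 6 matches, and LIN28B, HMGA2 and IGF2BP1 have 4 each. The log2 fold changes of these genes, 48 h of XMD892 over E8, were -0.21, -0.95, -0.46 and 0.00 in that order. With the longest 3′ UTR HMGA2 has 0 matches.

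Libraries carried between 18528689 and 24148186 reads over the listed genes, and all 8 genes were far above the filter of a mean of 10 that left 16351 genes for testing. Each value is a normalised read count, a gene's reads divided by 1 factor per library. LIN28B, with the lowest mean read count of the 8, had between 1899 and 5409 reads in a library, so counting error was at most 2.29% of any value. Over all tested genes the squared difference between replicates averaged 10.1 times its counting variance at 24 h, 10.2 times at 48 h and 34.8 times in E8. The 10 pluripotency markers fixed for the label, among them POU5F1, SOX2 and NANOG, were all detected, with summed values of 161570 at 12 h, 166670 to 175050 at 24 h and 163980 to 174460 at 48 h of XMD892, and 170700 to 189790 in E8. Of these, 0 were called higher at 48 h and 2 lower, NANOG at 2799 ± 349, against 6224 ± 575 in E8, and TDGF1, the NODAL co-receptor, at 6416 ± 287, against 11066 ± 1150 in E8 (SD, n = 2 each; limma adjusted p = 1.6e-05 and 0.00081). Of all tested genes 5.08% were called higher and 6.45% lower at 48 h, and 8.66% and 7.56% at 24 h. At 24 h 0 of the 10 were called higher and 3 lower, NANOG (4021 ± 165), TDGF1 (7033 ± 418) and SALL4 (2739 ± 288). Their limma adjusted p was 0.0057, 0.0035 and 0.044, and the SALL4 call held in 14 of 22 alternatives. NANOG was at 3059 in the 1 library at 12 h, a log2 fold change of -1.02. The 4 neuroectoderm markers listed of 5 summed to 19600 at 12 h, 12743 to 14419 at 24 h and 8923 to 9754 at 48 h, and to 7478 to 10947 in E8. NES, a filament protein, makes up most of that sum, with 8436 ± 615 at 48 h, against 8245 ± 2420 in E8 (limma adjusted p = 0.85), but 18781 at 12 h (1 library, adjusted p = 0.00074) and 12715 ± 1260 at 24 h (0.012, lost without E8 replicate 1, at 0.098, or 24 h replicate 1, at 0.095). The less abundant members differed among themselves at 48 h. NCAM1 (483.5 ± 73.7, against 203.6 ± 10.1 in E8; log2 fold change 1.24, limma adjusted p = 0.00012) and SOX1 (95.5 ± 22, against 41 ± 11 in E8; 1.21, adjusted p = 0.012) were called higher, and SIX3 (323.9 ± 24.4, against 722.8 ± 7.26 in E8; -1.16, adjusted p = 6.7e-05) lower; the SOX1 call was lost without E8 replicate 1 (0.09) or 48 h replicate 2 (0.17). Mesendoderm markers (4 of 4 listed) summed to 61.2 at 12 h, 93.7 to 102 at 24 h and 84.2 to 87.3 at 48 h, against 312 to 320 in E8. MIXL1, most of that sum in E8, was lower at 48 h (61.3 ± 5.82, against 255.4 ± 11.7 in E8, limma adjusted p = 7.7e-06). GSC was also lower (8.87 ± 2.73, against 38.9 ± 9.29 in E8, adjusted p = 0.013). Both were called lower at 24 h too (adjusted p = 2.7e-05 and 0.017). T and EOMES had means under 10 and were not tested. Trophoblast and amnion markers (3 of 5) summed to 96.6, 79.1 to 82.3 and 99.3 to 136 at the 3 times, against 163 to 202 in E8. KRT7, the 1 of them tested, was lower at 24 h (73.2 ± 4.9, against 163.1 ± 17.1 in E8, limma adjusted p = 0.0027). It was not called at 48 h (114.6 ± 23.1, adjusted p = 0.17). Fibroblast markers (2 of 5, COL1A1 and COL1A2) summed to 2867, 2509 to 2513 and 2115 to 2385, against 1869 to 2267 in E8. COL1A1 was called higher at 12 h (1534, 1 library; limma adjusted p = 5.3e-05) and 24 h (866.6 ± 21.8; 0.0064) and lower at 48 h (342.5 ± 25.7; 0.014), against 535.1 ± 76.4 in E8; leaving out 24 h replicate 1 (0.067) ended the 24 h call, and leaving out 48 h replicate 1 (0.063) or 2 (0.15) the 48 h call. COL1A2 was not called at any time. The endoderm markers were not analysed here, and the part of any of these cell types in the changes of the 8 genes was not tested.

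Levels between genes were compared as normalised reads per kilobase of merged exons. In E8, HMGA1 was highest at 22790 per kb (19140 to 26430 over the 2 libraries), followed by LIN28A at 9542 (8501 to 10580), TRIM71 at 1564 (1528 to 1600) and IGF2BP1 at 1178 in both libraries. IGF2BP2 stood at 797.2 (793.4 to 801) and LIN28B at 698.2 (609.6 to 786.8), neighbours whose libraries lay just apart. IGF2BP3, at 491.7 (438.6 to 544.7), and HMGA2, at 421.6 (391.9 to 451.2), overlapped. At 48 h of XMD892 the order kept HMGA1 (28030 per kb), LIN28A (9244), TRIM71 (1352), IGF2BP1 (1179) and IGF2BP2 (679.7) in their places, while IGF2BP3 (419.3) lay above LIN28B (358.9) and HMGA2 (304.8). HMGA2's merged exons, 15403 bases, include long alternative ends, which lower its level on this scale. By normalised read count without length, HMGA1 ranked 11 and LIN28A 30 among all 19775 genes.

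LIN28B, on chromosome 6 (104936616 to 105083332, plus strand) and with 4 seed matches, was lower at 24 h and 48 h of XMD892. Its E8 libraries held 4722 and 3659 normalised reads, the 12 h library 2742, the 24 h libraries 2046 and 2256 and the 48 h libraries 2051 and 2257. Every XMD892 library lay below both E8 libraries, and the 24 h and 48 h libraries covered the same range. At 48 h the mean was 2154 ± 146, against 4191 ± 752 in E8 (SD, n = 2 each), a log2 fold change of -0.95 (SE 0.15, 95% interval -1.27 to -0.63; limma adjusted p = 0.00026), or 51.8% of the E8 level. The change at 24 h was -0.95 (SE 0.15; limma adjusted p = 0.00028). At 12 h, with 1 library, it was -0.60 (SE 0.19) and missed the threshold (limma adjusted p = 0.052). Between 48 h and 24 h the difference was 0.00 (95% interval -0.31 to 0.32). In bulk RNA, fewer cells with a transcript and less of it per cell cannot be told apart.

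The fall at 24 h and 48 h passed the test in 22 of 22 alternatives at each time. At 48 h it ranged from -1.13 without E8 replicate 2 to -0.77 without E8 replicate 1, and at 24 h from -1.14 to -0.77 in the same settings. The 12 h value passed in 9 of 21 alternatives, with log2 fold changes between -0.78 and -0.42. LIN28B-AS1, which shares 67 exon bases with LIN28B on the opposite strand, held 10.8 to 21.5 normalised reads in any library, against a mean of 2154 for LIN28B at 48 h.

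LIN28A, its paralog on chromosome 1 (26410778 to 26429722, plus strand), had values of 34071 and 42415 in E8, 42768 after 12 h, 41792 and 44146 after 24 h and 33331 and 40771 after 48 h. The libraries of the 48 h and E8 groups overlapped. Its log2 fold change at 48 h was -0.04 (95% interval -0.37 to 0.28; limma adjusted p = 0.89), an interval that does not reach the LIN28B change of -0.95. At 24 h it was 0.18 (95% interval -0.15 to 0.50; limma adjusted p = 0.48).

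**Figure D2:**
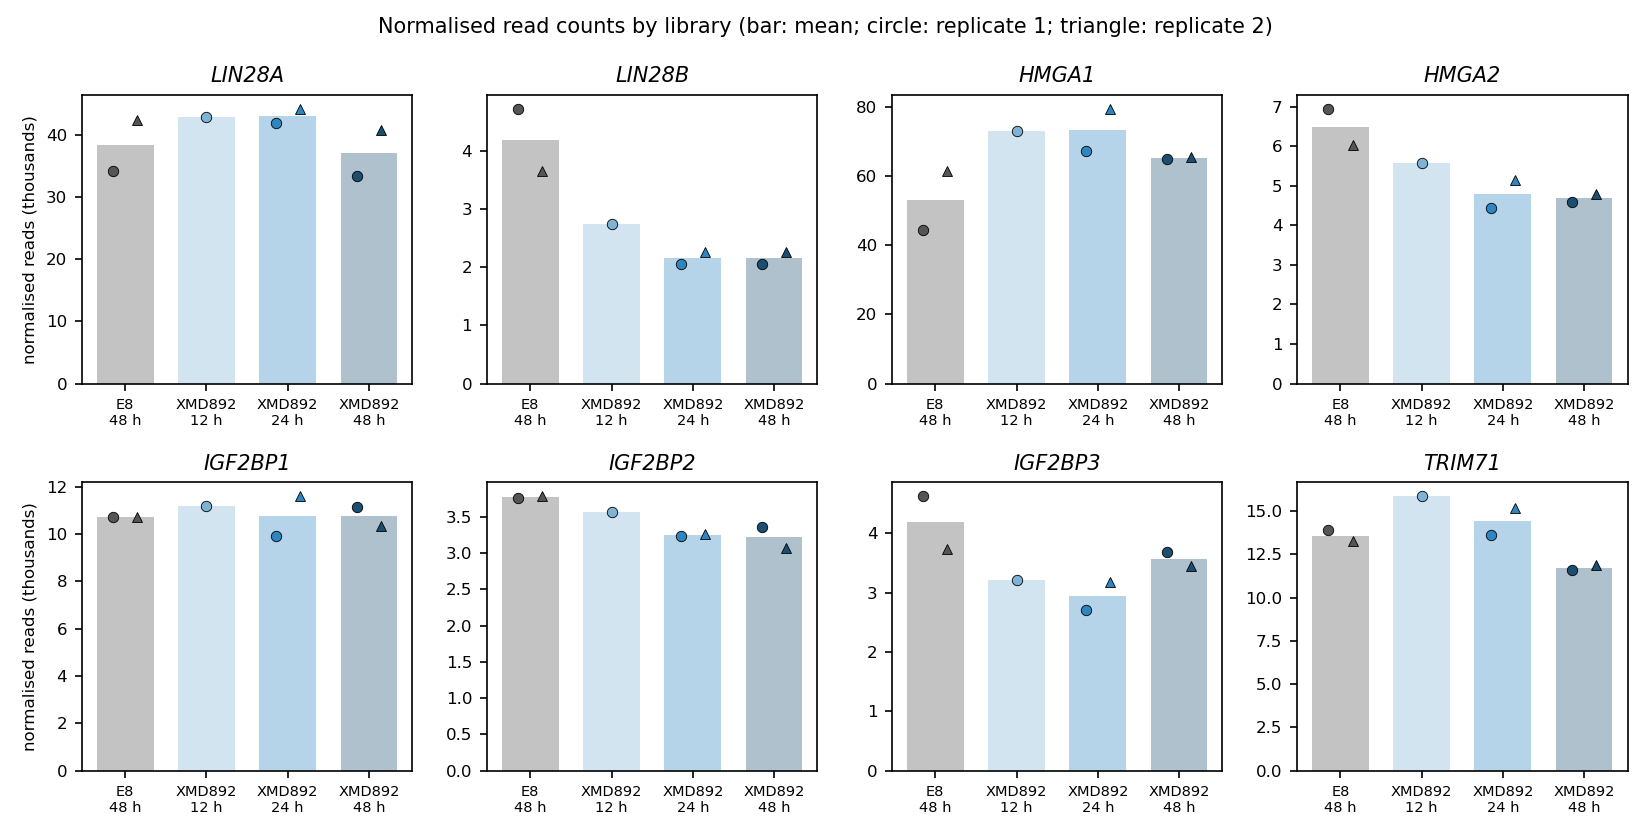
Normalised read count of each of the 8 genes in every library, E8 at 48 h followed by XMD892 at 12, 24 and 48 h. LIN28B lies at 3659 and 4722 in E8 and at or below 2742 in every XMD892 library, while IGF2BP1 stays between 9920 and 11616 throughout.

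Of the AT-hook pair, HMGA2 was lower at 24 h and 48 h of XMD892 and HMGA1 higher at 24 h. HMGA2, on chromosome 12 (65824131 to 65966295, plus strand) and with 4 seed matches in the principal transcript (0 in the longest 3′ UTR), had 6951 and 6037 normalised reads in E8, 5584 after 12 h, 4440 and 5156 after 24 h and 4596 and 4793 after 48 h. All XMD892 libraries lay below both E8 libraries. The log2 fold change was -0.46 at 48 h (SE 0.14, 95% interval -0.76 to -0.17; limma adjusted p = 0.038) and -0.44 at 24 h (SE 0.14; limma adjusted p = 0.041). These calls sit close to the threshold: the 48 h adjusted p became 0.077 when E8 replicate 1 was dropped, and 0.23 or 0.15 when 48 h replicate 1 or 2 was. For the 24 h call the values were 0.10 on dropping E8 replicate 1 and 0.42 or 0.085 on dropping 24 h replicate 1 or 2. Dropping a library of the group not compared also ended both calls, the 48 h one at 0.061 or 0.062 (24 h replicate 1 or 2) and the 24 h one at 0.067 or 0.066 (48 h replicate 1 or 2). The estimate stayed negative in all 22 alternatives at each time.

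HMGA1, on chromosome 6 (34236873 to 34246231, plus strand), had 44531 and 61511 normalised reads in E8, 73176 after 12 h, 67323 and 79592 after 24 h and 64939 and 65503 after 48 h. Both E8 libraries were below every XMD892 library, but E8 replicate 2 lay closer to the 48 h libraries than to E8 replicate 1. At 24 h the log2 fold change was 0.48 (SE 0.16, 95% interval 0.14 to 0.83; limma adjusted p = 0.048). At 48 h it was 0.32 (95% interval -0.02 to 0.66; limma adjusted p = 0.22). The 24 h call was lost in 12 of 22 alternatives, among them the dropping of E8 replicate 1 (0.25, adjusted p = 0.36), of 24 h replicate 1 (0.60, adjusted p = 0.059) or 2 (0.36, adjusted p = 0.30) and of 48 h replicate 1 (adjusted p = 0.060) or 2 (adjusted p = 0.057). The 48 h value passed only without E8 replicate 2 (0.55, adjusted p = 0.011). HMGA1 has 8 named pseudogenes, of which the table lists 2, and reads from near-identical copies may have been shared between them.

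Among the 3 IGF2BP genes, IGF2BP3 was called lower, at 24 h, and the other two were not called at any time. IGF2BP3, on chromosome 7 (23310209 to 23470467, minus strand), had 4636 and 3733 normalised reads in E8, 3210 after 12 h, 2703 and 3174 after 24 h and 3694 and 3443 after 48 h. No XMD892 library overlapped the E8 pair, though 48 h replicate 1 came close to the lower E8 library. It was lower at 24 h (log2 fold change -0.51, SE 0.15, 95% interval -0.82 to -0.19; limma adjusted p = 0.025) and did not pass at 48 h (-0.22, 95% interval -0.53 to 0.09; limma adjusted p = 0.37). Dropping E8 replicate 1 (-0.35, adjusted p = 0.093) or 24 h replicate 1 (-0.39, adjusted p = 0.32) ended the 24 h call, and the 48 h value passed without E8 replicate 2 (-0.38, adjusted p = 0.036). The difference between 48 h and 24 h was 0.28 (95% interval -0.03 to 0.60; limma adjusted p = 0.45).

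IGF2BP3 shares 1521 exon bases on the opposite strand with MALSU1, a mitochondrial ribosome assembly factor. The strand setting of the counting is not given, so reads in the shared stretch cannot be assigned to either gene with certainty. MALSU1 had 474 and 643 normalised reads in E8, 652 after 12 h, 989 and 819 after 24 h and 757 and 715 after 48 h. It was higher at 24 h (log2 fold change 0.70, SE 0.17; limma adjusted p = 0.0088), the opposite direction to IGF2BP3, in 21 of 22 alternatives and not without 24 h replicate 1 (0.57, adjusted p = 0.14).

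IGF2BP1, on chromosome 17 (48997412 to 49055650, plus strand) and with 4 seed matches, had the highest level of the 3 per kilobase. Its values were 10727 and 10729 in E8, 11168 after 12 h, 9920 and 11616 after 24 h and 11157 and 10330 after 48 h, with the E8 pair inside the range of the 24 h and the 48 h libraries. The log2 fold change was 0.00 at 48 h (95% interval -0.29 to 0.29) and 0.00 at 24 h (95% interval -0.29 to 0.29), limma adjusted p = 1 for both. IGF2BP2, on chromosome 3 (185643739 to 185825056, minus strand), had 3757 and 3793 in E8, 3566 after 12 h, 3232 and 3266 after 24 h and 3362 and 3075 after 48 h. Its XMD892 libraries all lay below E8, but the change of -0.23 at 48 h did not pass the test (95% interval -0.52 to 0.06; limma adjusted p = 0.30), nor did that of -0.22 at 24 h (limma adjusted p = 0.31).

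TRIM71, with the most seed matches and on chromosome 3 (32818018 to 32897826, plus strand), had 13898 and 13267 normalised reads in E8, 15896 after 12 h, 13629 and 15192 after 24 h and 11584 and 11904 after 48 h. The 24 h libraries overlapped E8, and both 48 h libraries lay below it. None of its comparisons passed: the log2 fold change was -0.21 at 48 h (95% interval -0.50 to 0.08; limma adjusted p = 0.35), 0.08 at 24 h (limma adjusted p = 0.73) and 0.23 at 12 h (limma adjusted p = 0.46). Between 48 h and 24 h it was -0.29 (95% interval -0.58 to -0.01; limma adjusted p = 0.38).

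Counted together, 2 of the 8 genes were called at 48 h, both lower (LIN28B and HMGA2), while 11.5% of all tested genes were called, 5.08% higher and 6.45% lower. The count at 24 h was 4 of 8, with LIN28B, HMGA2 and IGF2BP3 lower and HMGA1 higher, beside 16.2% of all tested genes, 8.66% higher and 7.56% lower. After removal of the GC trend within each library, the split over all genes at 24 h was 1356 higher of 3166 called, against 1416 higher of 2652 without that step. At 12 h limma called 0 of the 8, beside 7.46% of all genes, 2.56% higher and 4.89% lower; 2 had an unadjusted p under 0.05 (LIN28B and HMGA1), DESeq2 called LIN28B and edgeR called 0. Between 48 h and 24 h limma, edgeR and DESeq2 each called 0 of the 8, with 1 at an unadjusted p under 0.05 (TRIM71), beside 1.2% of all genes, 0.349% higher and 0.856% lower. Between 24 h and 12 h all 3 tools called 0 and 0 had an unadjusted p under 0.05, beside 0.391% of all genes, 0.263% higher and 0.128% lower. The comparisons with E8 share the same 2 E8 libraries, and the 8 genes were chosen with earlier results of these data known.

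By libraries that did not overlap, 5 of the 8 were lower and 1 higher at 48 h, where 25% of all tested genes were lower and 27.3% higher in this way. At 24 h 4 were lower and 1 higher, where the shares were 28.5% and 29.8%. The median log2 fold change of the 8 was -0.22 at 48 h and -0.11 at 24 h, beside 0.02 and 0.01 over all tested genes.

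**Figure D3:**
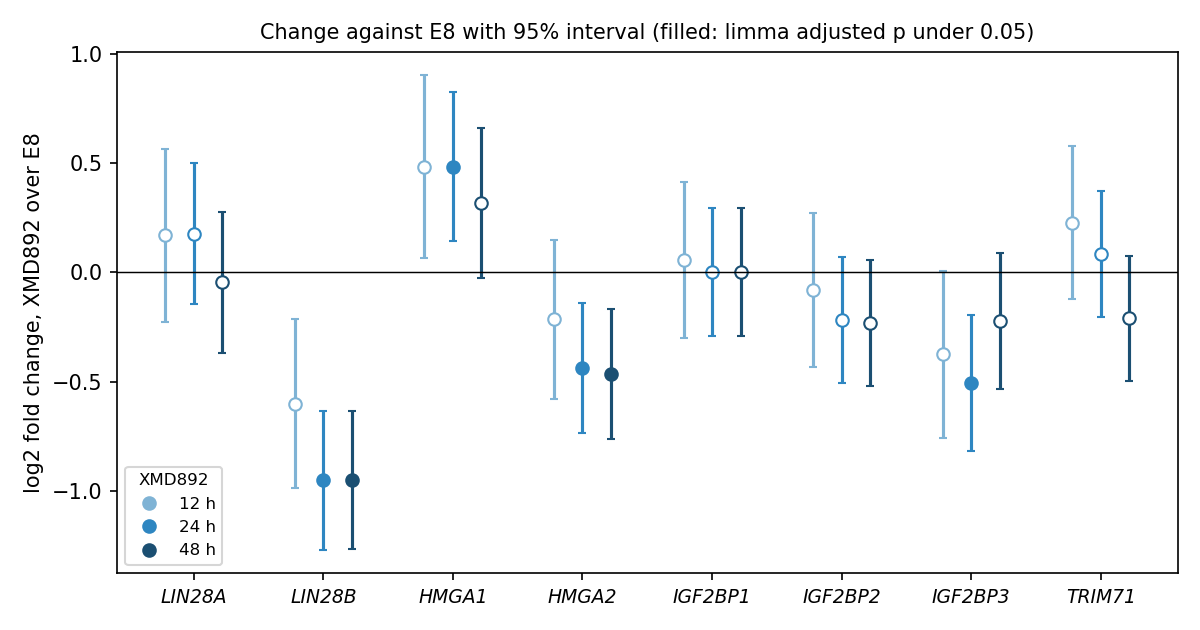
Log2 fold change with its 95% interval (limma) of the 8 genes at each time of XMD892 over E8. The LIN28B interval at 48 h runs from -1.27 to -0.63, while those of LIN28A and IGF2BP1 span 0 at every time.

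Transcript GC content separated the E8 replicates, and several of the 8 genes moved with it. As a description over the tested genes, which share their libraries, the Spearman correlation of the replicate difference with GC was 0 at 24 h, 0.21 at 48 h and -0.65 in E8. LIN28B (38.1% GC), HMGA2 (38.8%) and IGF2BP3 (40.5%) were higher in E8 replicate 1 than in E8 replicate 2, by 0.37, 0.20 and 0.31 on the log2 scale. HMGA1, the most GC-rich at 61.3%, was lower in E8 replicate 1, at -0.47. LIN28A (48.5%) was also lower there, at -0.32, and IGF2BP1, IGF2BP2 and TRIM71 (47.4% to 49.6%) differed by 0.07 or less. The genes called lower are thus the 3 poorest in GC, and the gene called higher the richest.

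With the trend removed, LIN28B was at -0.83 (limma adjusted p = 0.00011) at 48 h and -0.82 (0.00016) at 24 h. HMGA2 was at -0.35 (adjusted p = 0.039) at 48 h and -0.31 (0.061) at 24 h, and IGF2BP3 at -0.39 (0.027) at 24 h. HMGA1 at 24 h had 0.22 (adjusted p = 0.33). LIN28B at 12 h was -0.54 and passed (adjusted p = 0.011).

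**Figure D4:**
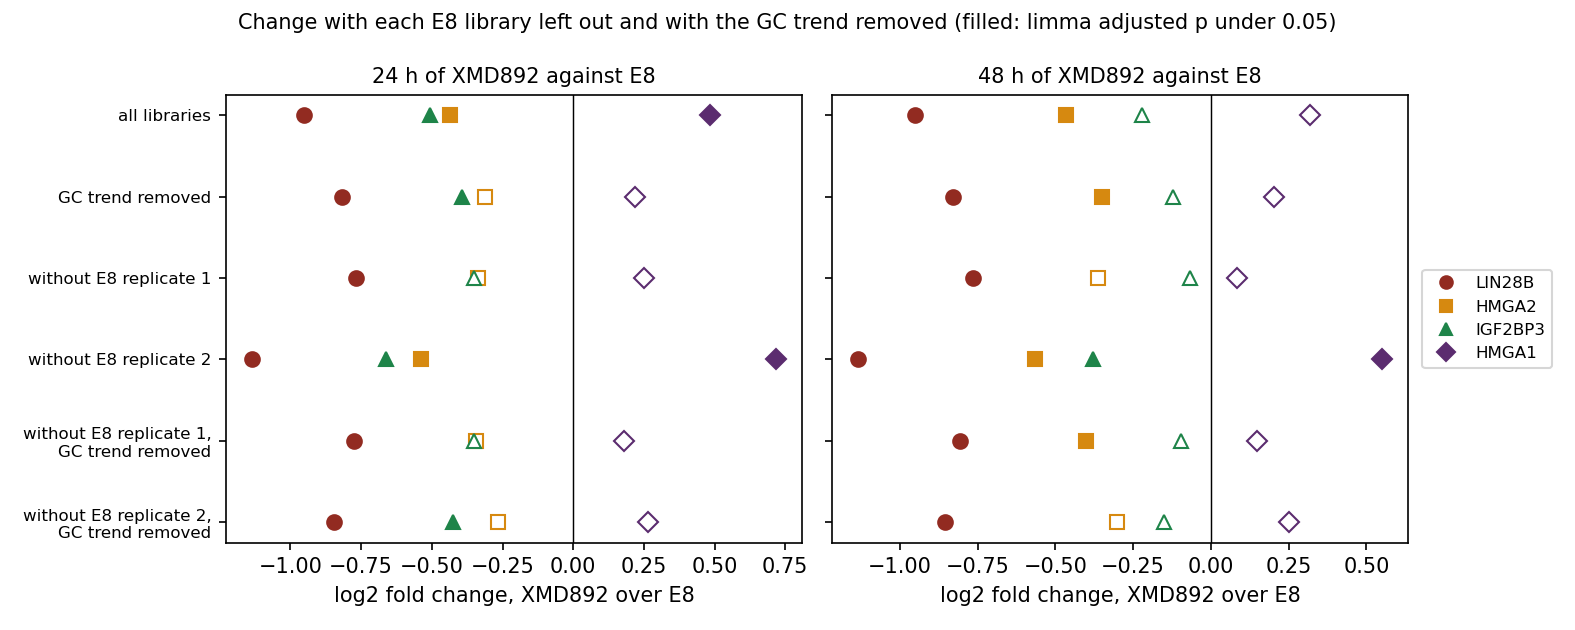
Log2 fold change of LIN28B, HMGA2, IGF2BP3 and HMGA1 at 24 h and 48 h of XMD892 over E8 with all libraries, with either E8 replicate left out and with the GC trend removed; filled symbols passed at a limma adjusted p under 0.05. LIN28B is filled in every row, and HMGA1 at 24 h is filled at 0.48 with all libraries and open at 0.22 with the GC trend removed.

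Ratios of paralogs within a library cancel its scaling factor, but not its GC trend. The log2 ratio of LIN28B over LIN28A was -2.85 and -3.53 in E8, -3.96 after 12 h, -4.35 and -4.29 after 24 h and -4.02 and -4.17 after 48 h. Every XMD892 library had a lower ratio than both E8 libraries. The mean was -4.10 ± 0.11 at 48 h, against -3.19 ± 0.48 in E8 (SD, n = 2 each), a difference of -0.91 with an exact two-sided permutation p of 0.333, the smallest that 2 against 2 allows. At 24 h the difference was -1.13 with the same exact permutation p.

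HMGA2 over HMGA1 also lay below E8 in every XMD892 library, at -2.68 and -3.35 in E8, -3.71 after 12 h, -3.92 and -3.95 after 24 h and -3.82 and -3.77 after 48 h, a difference of -0.78 at 48 h. IGF2BP1 over IGF2BP3 was 1.21 and 1.52 in E8, 1.80 after 12 h, 1.88 and 1.87 after 24 h and 1.59 and 1.58 after 48 h, above E8 throughout, by 0.51 at 24 h and 0.22 at 48 h. IGF2BP2 over IGF2BP3 overlapped between 48 h and E8, with a difference of -0.01. For LIN28B over LIN28A the E8 libraries themselves lay 0.68 apart, and for HMGA2 over HMGA1 0.67 apart.

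**Figure D5:**
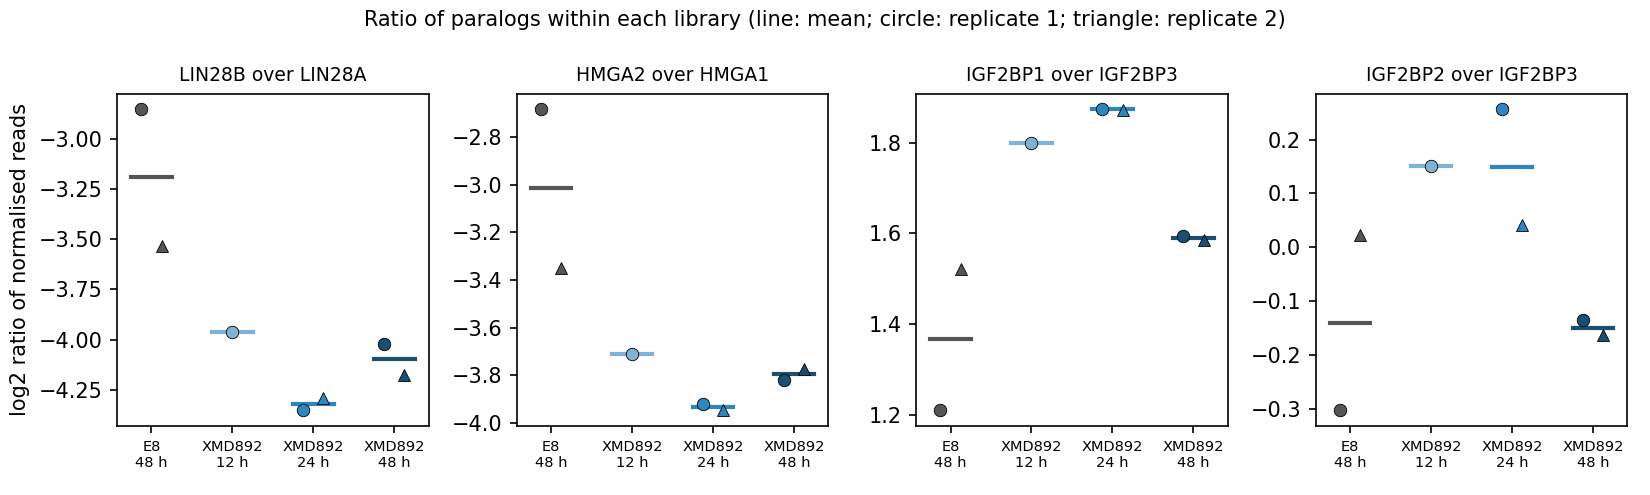
Log2 ratio of normalised read counts of 4 paralog pairs in each library, E8 at 48 h followed by XMD892 at 12, 24 and 48 h. LIN28B over LIN28A is at -2.85 and -3.53 in E8 and at or below -3.96 in every XMD892 library.

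Genes of the microRNA machinery were read against all tested genes, of which 11.5% were called at 48 h, 16.2% at 24 h and 7.46% at 12 h. Among 10 listed factors of microRNA precursor tailing, decay and maturation, limma, edgeR and DESeq2 each called 0 at 48 h. Their median log2 fold change was -0.07, with 1 at an unadjusted p under 0.05 (BCDIN3D, 1.35, named after its value was seen). BCDIN3D was low, at 14.3 ± 6.65 normalised reads in E8, 44.6 ± 20.8 at 24 h and 38.7 ± 19.6 at 48 h. DESeq2 called 0 of the 10 at 24 h. Of 16 microRNA processing genes, 1 was called higher and 0 lower at 48 h, with a median of -0.09. That gene, PRKRA, which encodes the Dicer partner PACT, had 1216 ± 75.3 normalised reads at 48 h, against 869.6 ± 96.3 in E8 (log2 fold change 0.49, SE 0.15; limma adjusted p = 0.043), and passed in 13 of 22 alternatives; dropping E8 replicate 2 (adjusted p = 0.056), either 24 h replicate (0.072 each) or 48 h replicate 1 (0.15) or 2 (0.26) ended the call. At 24 h, 1 of the 16 was called higher (TARBP2, the Dicer partner TRBP, 0.51, limma adjusted p = 0.045) and 2 lower (AGO4, an Argonaute, -0.71, adjusted p = 0.006, and TNRC6A, a GW182 protein, -0.47, adjusted p = 0.033), and BCDIN3D was higher among the 10 factors (1.57, adjusted p = 0.023). At 12 h, AGO4 was lower at 308.1 in the 1 library, against 602.3 ± 37.3 in E8 (-0.96, limma adjusted p = 0.0045), and limma called no further gene of either list. These genes are named after their values were seen. Leaving out 24 h replicate 1 ended all 4 calls at 24 h (adjusted p = 0.066 to 0.36). Leaving out E8 replicate 1 ended those of TARBP2 (0.26), TNRC6A (0.067) and BCDIN3D (0.16), and leaving out 24 h replicate 2 or either 48 h replicate those of TARBP2 and TNRC6A (0.053 to 0.11).

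In the list of let-7 host genes 4 were tested, of which LINC01465 held no let-7 hairpin by its GENCODE position, and at 48 h limma, edgeR and DESeq2 each called 0, with 0 at an unadjusted p under 0.05. SPACA6, which holds let-7e, was not in the list. At 24 h limma called LINC01465 higher (33.0 ± 0.98, against 12.6 ± 6.71 in E8, adjusted p = 0.045), and edgeR and DESeq2 each called 0. MIR100HG, which holds let-7a-2, had 7.97 ± 7.06 normalised reads at 48 h, against 17.6 ± 9.69 in E8 (limma adjusted p = 0.28). HUWE1, whose gene holds let-7f-2 and miR-98, had 9334 ± 1970 normalised reads at 48 h, against 10377 ± 616 in E8. WDR82, which holds let-7g, had 3982 ± 343 at 48 h, against 3674 ± 61.5 in E8. Neither passed the test (limma adjusted p = 0.57 and 0.66), and the processed mRNA of a host does not measure the microRNA within it.

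Other genes reported as let-7 targets went both ways. Of 27 tested, 1 was called higher and 3 lower at 48 h, with a median of -0.06. Over all tested genes 5.08% were higher and 6.45% lower at that time. At 24 h 6 of the 27 were higher and 3 lower, with a median of -0.14, beside 8.66% and 7.56% of all tested genes. The 6 higher at 24 h were MYCN (log2 fold change 0.79, limma adjusted p = 0.0012), HRAS (0.78, 0.0065), MYC (0.53, 0.016), CDC34 (0.59, 0.023), NR6A1 (0.42, 0.044) and THBS1 (0.51, 0.0496), and the 3 lower CDK6, INSR and SALL4, all named after their values were seen. MYCN and MYC encode oncogenic transcription factors and HRAS a RAS GTPase. Of these 9 calls that of MYCN held in all 22 alternatives; leaving out 24 h replicate 1 ended the other 8 (adjusted p = 0.051 to 0.44). Leaving out E8 replicate 1 ended those of CDC34 (0.21), INSR (0.054) and SALL4 (0.096), leaving out 24 h replicate 2 those of INSR (0.21), NR6A1 (0.38), SALL4 (0.097) and THBS1 (0.24), and leaving out either 48 h replicate those of NR6A1, SALL4 and THBS1 (0.072 to 0.074); the THBS1 call, also lost without E8 replicate 2 (0.086), held in 9 of 22 alternatives. E2F2, a cell cycle transcription factor, had 156.6 ± 33.5 normalised reads at 48 h, against 290.8 ± 19.9 in E8 (log2 fold change -0.90, SE 0.20; limma adjusted p = 0.0057). CDK6, a G1 kinase, had 1198 ± 144, against 1987 ± 359 in E8 (-0.72, SE 0.16; limma adjusted p = 0.0048). NR6A1, the germ cell nuclear factor that silences POU5F1 in mouse, was higher at 5885 ± 169, against 4045 ± 279 in E8 (0.54, SE 0.14; limma adjusted p = 0.014). These 3 calls held in 20 or 21 of 22 alternatives; E2F2 was lost without 48 h replicate 2 (adjusted p = 0.12), CDK6 without 48 h replicate 1 (0.11), and NR6A1 without 48 h replicate 1 (0.14) or 2 (0.085).

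The same description by sequence used every tested gene with a 3′ UTR. Of 30 genes with at least 3 seed matches, 2 were called higher and 5 lower at 48 h, with a median log2 fold change of -0.14. Beside LIN28B and HMGA2 the lower ones were RAB15 (-0.71), NYNRIN (-0.67) and FIGN (-0.54), and the higher ones NR6A1 and IGDCC3 (0.61), named after their values were seen. Leaving out 48 h replicate 1 ended the call of IGDCC3 (adjusted p = 0.11), leaving out 48 h replicate 2 those of RAB15 (0.080) and NYNRIN (0.21), and leaving out E8 replicate 1 (-0.35, adjusted p = 0.22) or any single 24 h or 48 h library (0.058 to 0.27) that of FIGN. Without the 4 of the 8 genes among them, 2 of 26 were higher and 3 lower, with a median of -0.11. Genes with at least 1 match (1333) had 58 higher and 106 lower and a median of -0.02, and the 12008 genes without a match had 673 higher and 821 lower and a median of 0.03. Median GC content was 46.9% in genes with at least 3 matches, 47.2% with at least 1 and 49.4% without a match, so these groups also differ in GC, along which the E8 replicates were separated; its part in the medians was not tested.

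A list of 15 genes held RNAs bound by IGF2BP proteins and genes of their protein partners. Of these, 0 were called higher and 2 lower (H19 and CD44) at 48 h, with a median of -0.06. The shares of all tested genes were 5.08% higher and 6.45% lower at 48 h, and 8.66% and 7.56% at 24 h. At 24 h 1 was called higher (MYC) and 1 lower (MAPK4), both named after their values were seen. MAPK4 had 139.5 ± 23.6 at 24 h, against 240.2 ± 6.25 in E8 (-0.79, limma adjusted p = 0.013). Its change was -0.94 in the 1 library at 12 h, where it was also called lower, and -0.15 at 48 h, where it was not. The MAPK4 calls were not checked with single libraries left out. H19, an imprinted noncoding RNA, had 54.9 ± 13.5 normalised reads at 48 h, against 114.8 ± 12.9 in E8 (log2 fold change -1.07, SE 0.28; limma adjusted p = 0.014), lost without 48 h replicate 1 (-0.82, adjusted p = 0.18). CD44, a hyaluronan receptor, had 21.5 ± 10.8, against 48.0 ± 18.5 in E8 (-1.16, SE 0.35; limma adjusted p = 0.037), and lost its call without E8 replicate 2 (-0.76, adjusted p = 0.17) and without 48 h replicate 2 (-0.65, adjusted p = 0.36). At 12 h it was called higher, at 181.4 in the 1 library (1.95, limma adjusted p = 0.0072), and at 24 h it had 71.1 ± 9.24 (0.60, limma adjusted p = 0.26).

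At 48 h 5.08% of all tested genes were called higher and 6.45% lower. Of 16 other RNA-binding proteins of pluripotent cells, 0 were called higher and 1 lower at 48 h, with a median of -0.17. It was ZFP36L2, which promotes decay of mRNAs with AU-rich elements, at 1712 ± 65.2, against 2647 ± 311 in E8 (log2 fold change -0.62, SE 0.15; limma adjusted p = 0.0074); without 48 h replicate 1 or 2 the adjusted p was 0.098 and 0.052. The 3 TRIM-NHL relatives of TRIM71 had 0 calls by limma, edgeR and DESeq2 at 48 h and 0 at an unadjusted p under 0.05, with a median of -0.04. Of 8 other high mobility group genes, 2 were called higher and 0 lower, with a median of 0.14. HMGN2, a nucleosome-binding protein, had 11553 ± 897 normalised reads at 48 h, against 7011 ± 2.97 in E8 (log2 fold change 0.72, SE 0.14; limma adjusted p = 0.0017), and passed in 22 of 22 alternatives. HMGN1, its relative, had 12181 ± 897, against 8944 ± 625 in E8 (0.45, SE 0.14; limma adjusted p = 0.040), and passed in 13 of 22; dropping E8 replicate 1 (adjusted p = 0.068), 24 h replicate 1 (0.072) or 2 (0.071) or 48 h replicate 1 (0.12) or 2 (0.27) ended the call.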

How the data were processed

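Poly(A) RNA was read as paired ends on an Illumina NextSeq 500, per the labels' protocols. The submitters' processing notes name Trimmomatic 0.36, STAR, featureCounts 1.5.3, DESeq2 1.26.0 and the hg38 genome, with no roles; annotation and strand setting are not given in the sources used here. The deposited signal is a gene's read count scaled by the authors with a single factor for each library. Whole reads were recovered, with 100% of values within 0.1 of a whole number. A further 2 columns matched no sample and were not used. The members and lists were chosen with earlier results of these data known.

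Values were taken as log2(value + 1), so fold changes are on that scale. A limma 3.58.1 model (R 4.3.3) gave each group its mean over all 7 libraries with a trended prior variance (3 residual degrees of freedom, prior 18.4), and p-values were adjusted by Benjamini-Hochberg over the 16351 genes with a mean of 10 or more, with 0.05 as the threshold. The lone 12 h library, and any library left alone when its replicate was left out, is taken to have the spread of the remaining groups. Alternatives were edgeR 4.0.16 and DESeq2 1.42.0 on recovered reads, other pseudocounts, filters and scalings, a replicate block, removal of each library's GC trend (loess, span 0.3) and each replicate left out. GENCODE 29 matched 97.4% of symbols. The 3′ UTR is that of the principal transcript, a choice made after seeing the data. Named genes are the 8 genes, up to 4 per list with the largest change among those called at 48 h, and the 3 closest profiles of each called gene. MALSU1, LIN28B-AS1, HUWE1 and WDR82 were named for their position. A further gene that this rule names is not reported here. Tested on simulated data with 16351 genes, the 48 h comparison recovered 74% of 2-fold and 24% of 1.5-fold changes, with 7 calls among 16151 unchanged genes.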

Additional observations from a re-analysis of the deposited data

How the results depend on the processing

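LIN28B kept its direction and its call at 24 h and 48 h under all alternatives run. The number of the 8 genes called at 48 h was 2, and 1 (LIN28B) with only the groups compared, with the replicate block and with the replicate block and the GC trend removed; leaving out 1 library gave 1 to 4. At 24 h it was 4, 3 with no filter and with TMM (HMGA1 lost) and with the replicate block (HMGA2 lost), and 2 with only the groups compared, with the GC trend removed and with the replicate block and the GC trend removed; leaving out 1 library gave 1 to 4. At 12 h it was 0, and 1 (LIN28B) with a pseudocount of 5, the same total per library, quantile normalisation, DESeq2, the GC trend removed and the replicate block with the GC trend removed; leaving out 1 library gave 0 to 3. Over all genes, 1884 were called at 48 h, 3050 with the GC trend removed and between 791 and 4057 with 1 library left out; at 24 h they lay between 1105 and 4917 with 1 library left out.

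Deviations of same-numbered libraries were hardly correlated over the tested genes (-0.035, -0.048 and -0.071). The E8 replicates differed along GC, so these correlations cannot decide whether the numbers pair the samples. With the replicate block 1955 genes were called at 48 h, against 1884 without it. Small uncalled changes turned sign. IGF2BP1 at 24 h was -0.0077 with TMM, -0.0135 with the same total, -0.0056 with quantiles, -0.0033 with edgeR, -0.0117 with the GC trend removed, with or without the replicate block, -0.022 with that and without E8 replicate 2, and -0.113 to 0.115 with 1 library left out. IGF2BP1 at 48 h was -0.0164 with the same total, -0.0405 with quantiles and -0.0158 with the GC trend removed, with or without the block, -0.0093 or -0.0227 with that and without E8 replicate 1 or 2, and -0.0545 to 0.0566 with 1 library left out. LIN28A at 48 h ranged from -0.2024 to 0.1136 with 1 library left out, and was -0.217 or 0.119 with the GC trend removed and without E8 replicate 1 or 2. The longest 3′ UTR of any transcript, in place of that of the principal one, held 0 seed matches in HMGA2 instead of 4 and the same number in the other 7 genes. With 2 libraries a group, as simulated for 48 h, changes of 1.5-fold were often missed, and a p that misses the threshold does not show an equal level.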

Other observations

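The genes nearest in profile to the called genes are given as a description. Likeness was the root mean square difference of log2 profiles, each centred on its own mean, over the 7 libraries, among 11358 genes with a mean of 100 or more. Nearest to LIN28B were MYSM1 (0.06), PTAR1 (0.08) and TRIM24 (0.09). MYSM1 averaged 1665 normalised reads at 24 h and 1705 at 48 h of XMD892, against 3508 in E8. Nearest to HMGA2 were SLC38A1, STRN and B3GALT5-AS1 (0.04 each), and nearest to HMGA1 were UHRF1 (0.03), DBN1 (0.06) and DBNL (0.06). PTPRZ1 (0.03) was nearest to IGF2BP3. The uncalled genes had neighbours at like distances, the nearest at 0.02 for IGF2BP1, 0.02 for IGF2BP2, 0.04 for TRIM71 and 0.05 for LIN28A. A near profile is therefore not particular to the called genes. These are descriptions over libraries that share the same differences in GC trend.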
